A study of Mus musculus with 6 samples.

Results

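The S100 genes encode small calcium-binding proteins, and 8 of them, S100a1, S100a4, S100a6, S100a8, S100a9, S100a10, S100a11 and S100a13, are described here out of 15845 genes in the count table. They were chosen by symbol, and all 8 were found and passed the low-count filter. Polyadenylated RNA came from bone marrow cells sorted as LSK, meaning that they lack mature lineage markers and display Sca1 and c-Kit; the fraction holds blood stem cells and multipotent progenitors. All mice were of strain C57BL/6 and carried Mx1Cre; Jak2VF/VF, that is, both copies of Jak2 with the V617F change, switched on by Cre under the Mx1 promoter, which responds to interferon and is active in blood cells among others. The vehicle group (PBS, 3 libraries) and the TP-3654 group (3 libraries, 150 mg/kg/day) were both treated for 6 weeks, and the series title names TP-3654 as a Pim1 inhibitor. The labels give neither age nor sex, and no group without the Jak2 allele is part of the comparison, so both groups share it.

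An S100 protein is built of a pair of EF-hand calcium-binding loops and usually works as a dimer that exposes a binding surface when calcium rises. S100a8 and S100a9 pair into calprotectin, which fills the cytoplasm of neutrophils and monocytes and, once released, acts as an alarmin on Toll-like receptor 4 and the receptor for advanced glycation end products. The other members mostly act inside the cell: S100a10 and S100a11 bind annexins at membranes, S100a4 binds non-muscle myosin, S100a6 binds the ubiquitin ligase adaptor Cacybp, S100a13 takes part in the release of Fgf1 and Il1a, and S100a1 regulates calcium handling in muscle and other cells. S100a10 is the exception in that it no longer binds calcium.

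All 8 genes lie on mouse chromosome 3 (GRCm38.p6 coordinates, RefSeq gene spans). S100a1 (90511034 to 90514330, minus strand), S100a13 (90514233 to 90524581), S100a4 (90603770 to 90606045), S100a6 (90612894 to 90614414), S100a8 (90669071 to 90670034) and S100a9 (90692630 to 90695721, minus strand) fall within 185 kb. S100a11 (93520496 to 93526288) and S100a10 (93555117 to 93564645) form a second group 2825 kb further on. S100a1 and S100a13 are transcribed away from each other and their spans overlap by 98 bases at the heads. S100a8 and S100a9 point towards each other across 22.6 kb.

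The sequences in front of S100a8 and S100a9 are shown because these genes varied together between libraries, and that of S100a4 because it lies in the same group and did not share their pattern. Each is the 250 bases before the annotated start in the direction of transcription, from RefSeq on GRCm38.p6, with capitals marking matches to the motifs described next.
S100a8, chr3:90668821-90669070, plus strand: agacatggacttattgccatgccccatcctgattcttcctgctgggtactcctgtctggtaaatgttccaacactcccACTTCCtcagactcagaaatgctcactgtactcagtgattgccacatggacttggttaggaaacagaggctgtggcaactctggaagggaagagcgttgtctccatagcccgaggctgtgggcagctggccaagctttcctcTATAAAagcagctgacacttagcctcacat
S100a9, chr3:90695722-90695971, minus strand: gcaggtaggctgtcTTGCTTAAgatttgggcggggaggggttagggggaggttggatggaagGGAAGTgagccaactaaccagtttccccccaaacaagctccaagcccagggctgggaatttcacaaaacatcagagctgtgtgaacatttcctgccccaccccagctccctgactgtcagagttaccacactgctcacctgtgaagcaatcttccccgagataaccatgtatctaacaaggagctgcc
S100a4, chr3:90603520-90603769, plus strand: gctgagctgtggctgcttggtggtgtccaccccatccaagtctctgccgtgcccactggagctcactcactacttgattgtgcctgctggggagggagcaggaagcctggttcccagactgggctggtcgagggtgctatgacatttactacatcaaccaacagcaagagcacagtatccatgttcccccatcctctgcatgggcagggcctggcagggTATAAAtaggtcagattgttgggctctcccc

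The motifs were searched on both strands in windows from 250 bases before to 50 after the start, which RefSeq gave for 7 of the 8 genes and not for S100a10. TATAAA, the letters of a TATA box, was present in 3 of the 7 windows and in 13.6% of all 32851 promoter windows. It began 30 bases before the start in S100a8 and 31 bases before it in S100a4, and at the annotated start itself in S100a9, just past the stretch printed. GGAAGT, the core of an ETS-type site such as that of PU.1, was present in 6 of the 7 windows and in 23.8% of all windows. The windows of S100a1 and S100a13 overlap by 204 bases and hold the same match. TTGCNNAA, a C/EBP-type sequence, was present only in S100a9 among the 7 windows, 236 bases before its start, and in 10.8% of all windows. These matches describe letters and were not tested as binding sites.

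Library totals ran from 20582057 to 25315596 counts, so that 3 counts corresponded to 0.116 to 0.153 CPM (counts scaled to library size with edgeR's TMM factors, the unit of all levels below). Among genes of the sort and of other cell types, Kit and Ly6a were present in each library, at 365 to 377 CPM in vehicle and 436 to 581 CPM with TP-3654 for Kit and 40.0 to 69.2 CPM for Ly6a (Sca1), and 7 T and NK cell genes summed to 1.38 to 3.33 CPM, with Cd3e at 0 in all libraries but TP-3654 replicate 2. Vehicle replicate 1 stood apart in mature myeloid genes. The summed CPM of 11 monocyte and macrophage genes was 1344 there, against 484 to 698 in the other vehicle libraries and 294 to 465 in TP-3654 libraries, and all 11 had their highest value in that library. By group, edgeR called 0 of the 11. At an unadjusted p under 0.05 with negative values there were 6, against 6.84% of tested genes. In 6 all TP-3654 values lay below every vehicle value, against 11.6% of tested genes. DESeq2 called 4 of the 11, all lower, where it called 4.92% of all genes it tested, in either direction. TP-3654 replicate 3 stood apart over all genes, with a chi-square per gene of 102 and 119 against the other TP-3654 libraries, which gave 17.4 between them, and 28.9% of tested genes were highest there. In edgeR 0% of 13149 tested genes passed an adjusted p of 0.05, and 17.1% had an unadjusted p under 0.05 (6.84% lower and 10.2% higher with TP-3654). The submitters call the 3 libraries of a group biological replicates. Their descriptions carry a different number for each library and do not say whether it names an animal. In bulk RNA fewer cells of a type and less RNA per cell cannot be told apart.

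S100a8 and S100a9 were nearly silent in most LSK libraries and abundant in vehicle replicate 1. S100a8 stood at 39.0, 0.450 and 0.458 CPM in vehicle replicates 1 to 3 and at 0.463, 9.21 and 1.12 CPM in TP-3654 replicates 1 to 3. S100a9 stood at 40.2, 0.135 and 0.504 CPM in vehicle and at 0.648, 7.47 and 2.61 CPM in TP-3654 libraries. For both genes vehicle replicate 1 was highest, TP-3654 replicate 2 came next, then TP-3654 replicate 3, and the groups overlapped. The raw counts of S100a8 were 990, 10 and 10 in vehicle and 10, 238 and 22 in TP-3654 libraries, and those of S100a9 were 1021, 3 and 11, then 14, 193 and 51.

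**Figure D1:**
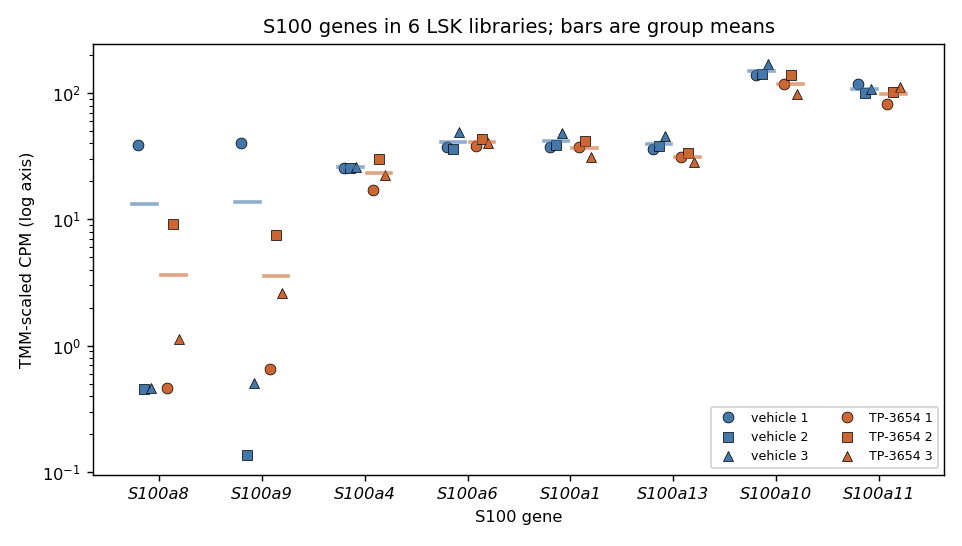
TMM-scaled CPM of the 8 S100 genes on a log axis, with 1 point per library (blue vehicle, orange TP-3654, shape for the replicate) and bars at the group means. S100a8 and S100a9 run from under 1 CPM to about 40 CPM in vehicle replicate 1, while the other 6 genes stay within 17.0 to 172 CPM.

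Counting error was small beside these gaps. The S100a8 level in vehicle replicate 1 had an exact Poisson 95% interval of 36.6 to 41.5 CPM, and that in vehicle replicate 2 one of 0.216 to 0.828 CPM. These intervals cover counting error only. S100a8 was 85.1-fold higher in vehicle replicate 1 than in vehicle replicate 3 (exact 95% interval 46.1 to 178), and S100a9 was 79.8-fold higher (44.4 to 160). Against vehicle replicate 2, where S100a9 had 3 counts, the ratio was 298 with an interval of 102 to 1447. Within the TP-3654 group, replicate 2 lay 19.9-fold above replicate 1 for S100a8 (10.6 to 42.1) and 11.5-fold above it for S100a9 (6.71 to 21.5). The ratio of S100a8 to S100a9 counts was 0.970 in vehicle replicate 1 and 1.23 in TP-3654 replicate 2, the libraries richest in both. It ran from 0.431 to 3.33 in the other 4, where the highest ratio rests on 10 and 3 counts.

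S100a8 averaged 13.3 ± 22.3 CPM (SD, n = 3) in vehicle and 3.60 ± 4.87 CPM in TP-3654 libraries, and S100a9 averaged 13.6 ± 23.0 and 3.57 ± 3.51 CPM. The log2 fold change of S100a8 (TP-3654 minus vehicle) was -1.87 with a standard error (SE) of 2.14, a 95% interval of -7.55 to 3.81 and an adjusted p of 0.672 in edgeR's quasi-likelihood test. For S100a9 it was -1.92 (SE 2.12, interval -7.54 to 3.702, edgeR adjusted p = 0.659). Neither gene passed, and the intervals allow large differences in both directions.

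The sign rested on vehicle replicate 1. Without it the log2 fold change was 2.98 for S100a8 (edgeR adjusted p = 0.448) and 3.47 for S100a9 (edgeR unadjusted p = 0.0357, adjusted p = 0.332). Without TP-3654 replicate 2 the values were -4.08 for S100a8 and -3.08 for S100a9. Leaving out vehicle replicate 2 or 3 or TP-3654 replicate 1 or 3 kept both negative, between -1.35 and -2.50. The authors' deposited table gives log2 fold changes of -1.79 for S100a8 and -1.94 for S100a9 and leaves the p-value of both blank, as it does for 24 of its 13154 genes. DESeq2 on the deposited counts likewise gave S100a8 no p-value, and S100a9 an adjusted p of 0.629. With all 6 libraries limma-voom, which works on log values, gave -0.29 for S100a8 and 0.59 for S100a9.

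**Figure D2:**
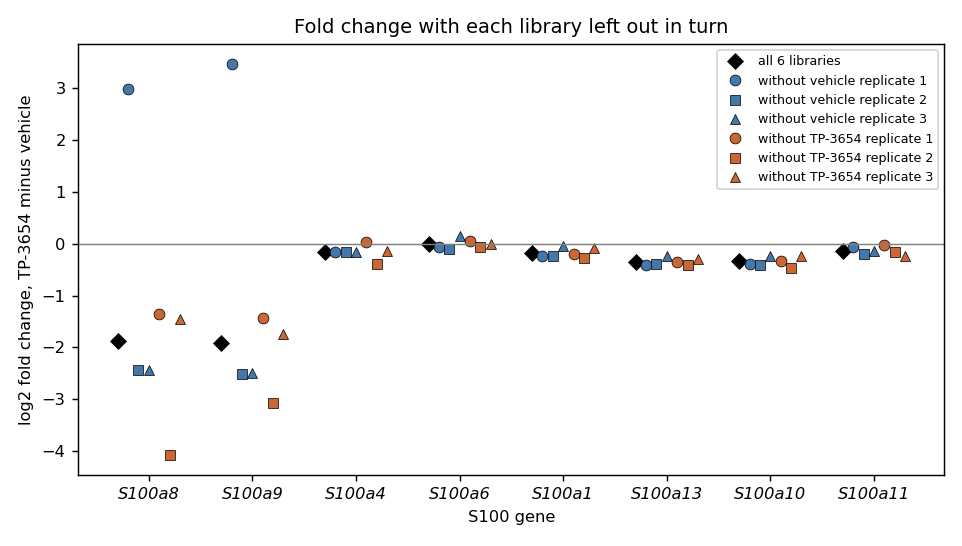
Log2 fold change (TP-3654 minus vehicle, edgeR) of each S100 gene with all 6 libraries (black) and with each library left out in turn (blue, a vehicle library; orange, a TP-3654 library). S100a8 and S100a9 cross to 2.98 and 3.47 without vehicle replicate 1, while the other 6 genes stay between -0.47 and 0.14.

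The range between libraries placed this pair among the most variable genes. Within vehicle, the log2 CPM of S100a9 (edgeR's, with its prior count) spanned 7.997 units, the rank 3 range of 13149 tested genes, and that of S100a8 spanned 6.37 units, rank 6, where the median gene spanned 0.34 units. Within TP-3654 libraries they spanned 3.48 and 4.25 units, ranks 159 and 99, against a median of 0.36. Among 727 tested genes within 0.5 log2 CPM of S100a8 in mean level, 99.7% had a smaller range in vehicle, and 99.9% of 724 genes near S100a9 did.

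Genes of late neutrophil maturation, which encode proteins of secondary granules and of mature neutrophils, were mostly highest in the same library. Of 18 such genes, 17 were in the count table, and 14 of the 17 were highest in vehicle replicate 1, against 16.5% of all genes with a count. In 12 of the 17, vehicle replicate 1 was highest and TP-3654 replicate 2 second, the order seen in S100a8 and S100a9, against 3.12% of all genes with a count. Being highest in vehicle replicate 1 was not particular to this list. It also held for 5 of 6 primary granule genes and 5 of 6 genes of the C/EBP, PU.1 and Gfi1 list, both described below. The order with TP-3654 replicate 2 second held for 1 and 0 of these, and for 2 of the 11 monocyte and macrophage genes. Ngp, a neutrophil granule protein, was at 16.2 CPM in vehicle replicate 1, at 0 in vehicle replicates 2 and 3 and at 0.416, 1.86 and 1.28 CPM in TP-3654 libraries. Ltf, which encodes lactoferrin, was at 8.55, 0.0450 and 0.0917 CPM in vehicle and at 0.185, 1.94 and 1.58 CPM in TP-3654 libraries. Camp, the cathelicidin, was at 4.26 CPM in vehicle replicate 1, at 0 in vehicle replicates 2 and 3 and from 0.139 to 0.542 CPM with TP-3654.

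The summed CPM of these 17 genes ran from 132 to 180 in vehicle and from 97.8 to 163 in TP-3654 libraries, most of it from Padi4, Cxcr2 and Lcn2. Padi4, a histone-modifying enzyme of neutrophils, was lowest in vehicle replicate 1 (59.3 CPM) and highest in TP-3654 replicate 3 (136.5 CPM), and Cxcr2, a chemokine receptor, was within 25.3 to 27.5 CPM in vehicle. Lcn2, an iron-carrier binding protein, was at 27.2, 16.8 and 10.3 CPM in vehicle and 3.52, 10.6 and 1.89 CPM in TP-3654 libraries. Ly6g, the surface marker of mature neutrophils, was at 0.158 CPM in vehicle replicate 1, at 0.0774 CPM in TP-3654 replicate 2 and at 0 in the other 4 libraries. Mmp8, the neutrophil collagenase, was at 6.07 CPM in vehicle replicate 1 and between 0.971 and 1.66 CPM elsewhere. Of the 17 genes 9 were tested, and edgeR called 0, with 0 below an unadjusted p of 0.05. DESeq2 also called 0, but it gave no adjusted p for Ngp, Ltf, Camp, Ly6g and some others of the list. Those genes could not be called there. The part of late neutrophil, monocyte and macrophage genes in the S100a8 and S100a9 levels was not tested.

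**Figure D3:**
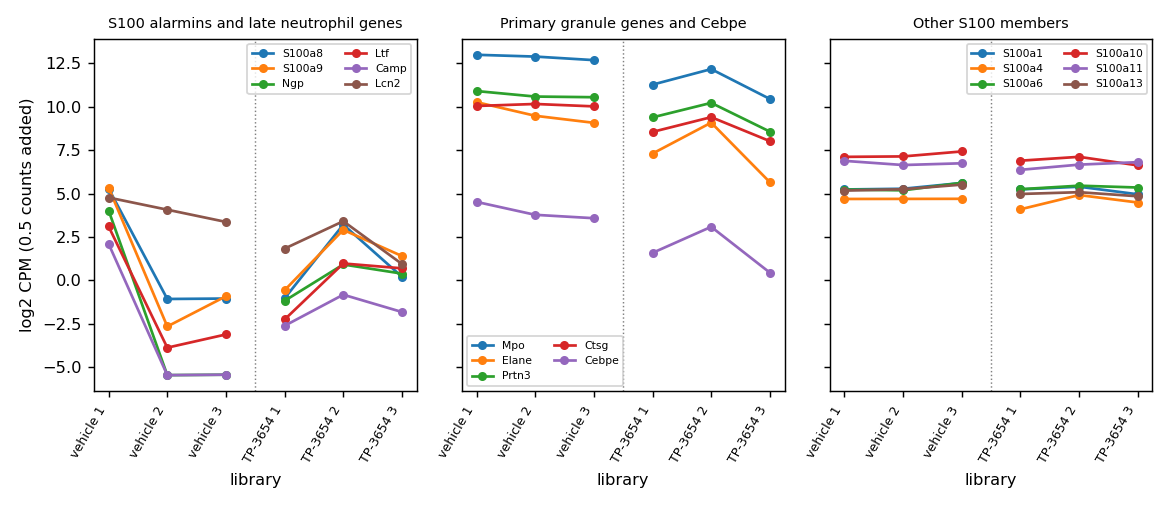
Log2 CPM (0.5 counts added) by library for S100a8, S100a9 and late neutrophil genes (left), primary granule genes Mpo, Elane, Prtn3 and Ctsg with Cebpe (middle) and the other S100 genes (right). Lines join the values of a gene within a group and imply no order; S100a8, S100a9, Ngp, Ltf and Camp peak in vehicle replicate 1, whereas Mpo is high in all 3 vehicle libraries.

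Primary granule genes, made at the promyelocyte stage before S100a8 and S100a9 reach their peak, were less unequal within vehicle for 5 of the 6 genes on the list, whose log2 CPM spanned 0.14 (Ctsg) to 1.19 units (Elane) there. The sixth, Fcnb, which encodes a ficolin, spanned 7.79 units, at 5.04, 0.180 and 0 CPM in vehicle and at 0.0925, 0.503 and 0 CPM in TP-3654 libraries, and did not pass the filter. The sum over 6 genes was 9949 to 12755 CPM in vehicle and 2147 to 7262 CPM in TP-3654 libraries. Mpo, the myeloperoxidase, was at 8195, 7634 and 6623 CPM in vehicle, where S100a8 differed 85.1-fold between replicates 1 and 3. Elane, the neutrophil elastase, was at 1235, 716 and 540 CPM in vehicle and at 158, 545 and 50.3 CPM in TP-3654 libraries. Transcription factors that take part in these programmes were tested as 6 genes. Of these, 5 had an unadjusted p under 0.05 with negative values and 0 passed in edgeR over all genes. Among all tested genes, 17.1% had such a p in either direction and 6.84% with a negative value. Cebpe, which drives the late granule stage, was at 22.9, 13.6 and 11.9 CPM in vehicle and 2.96, 8.44 and 1.33 CPM in TP-3654 libraries (log2 fold change -1.91, SE 0.68, edgeR adjusted p = 0.258). DESeq2 called Cebpa and Cebpb lower, and Ctsg among the primary granule genes. In the authors' deposited table Cebpa, Cebpe and Spi1 are lower (deposited adjusted p = 0.0038, 0.0049 and 0.025), and Cebpb, Cebpd and Gfi1 are not under 0.05. Mpo, Ctsg and Prtn3 are lower there too (deposited adjusted p = 0.023, 0.0156 and 0.0433), while Elane and the rest of that list are not under 0.05. Of all genes 5.31% are under 0.05 there. Stem and progenitor genes had the opposite sign: 5 of 7 (Kit, Flt3, Mecom, Hlf and Meis1) were higher in all TP-3654 libraries than in any in vehicle. That was so for 14.3% of all tested genes. edgeR called 0 of the 7, and DESeq2 called Mecom, Flt3, Meis1 and Hlf higher. DESeq2 called 4.92% of all genes it tested, in either direction. The part of these shifts in the S100 values was not tested.

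By profile over the 6 libraries, the nearest gene to the mean of S100a8 and S100a9 among all 13138 tested genes outside the family was Ltf, at 0.739 log2 units, then Clec4a2 (1.16), Tlr13 (1.298), Lipg (1.40), C1qc (1.48) and Ngp (1.54). Likeness is the root mean square distance between log2 CPM profiles centred on their own means. Among the 11442 genes with a mean log2 CPM of at least 1, a limit under which S100a8 (0.92) and S100a9 (0.91) themselves fall, the nearest were C1qc, Fn1, C1qa, C1qb, Klf4 and Lgals3. Their distances were 1.48 to 1.76 log2 units, and the median gene lay at 2.53. C1qc, a chain of the complement component made by macrophages, was at 11.8, 0.766 and 0.917 CPM in vehicle and at 3.701, 5.61 and 5.21 CPM in TP-3654 libraries. Lgals3, which encodes galectin 3, was at 27.0, 5.99 and 4.54 CPM in vehicle and at 4.44, 8.82 and 6.49 CPM in TP-3654 libraries. Each of these 6 genes above the limit was highest in vehicle replicate 1, which the search favours because S100a8 and S100a9 deviate most there. Klf4 is also among the 11 monocyte and macrophage genes.

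The other 6 S100 genes were expressed in every library, at 17.0 to 172 CPM. Per kilobase of exon (GENCODE M21) the vehicle means came in the order S100a11 (212 ± 17.9 CPM per kb, SD, n = 3), S100a10 (124 ± 15.4), S100a1 (60.1 ± 8.84), S100a13 (55.7 ± 7.16), S100a4 (44.2 ± 0.137) and S100a6 (30.0 ± 5.15). S100a1 and S100a13 differed by less than their SD, although S100a1 was the higher in all 6 libraries. S100a4 lay below S100a13 in all 3 vehicle libraries. In TP-3654 libraries S100a11 (193 ± 29.3) and S100a10 (98.0 ± 16.6) again led and S100a6 (29.9 ± 2.103) was again last, with the means of S100a1, S100a13 and S100a4 between 39.7 and 53.2 CPM per kb and their libraries overlapping. On the same scale S100a9 reached 77.1 and S100a8 56.2 CPM per kb in vehicle replicate 1, beside 54.2 for S100a1, and 0.259 to 0.966 in the other vehicle libraries. Together S100a8 and S100a9 made up 16.8% of the CPM of the 8 genes in vehicle replicate 1, 4.10% in TP-3654 replicate 2 and 0.154% to 1.11% in the other 4 libraries. The exon length used here joins the exons of all annotated transcripts of a gene, and the order per kilobase depends on it. In CPM without this scaling S100a6 lay above S100a4 in all 6 libraries.

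**Figure D4:**
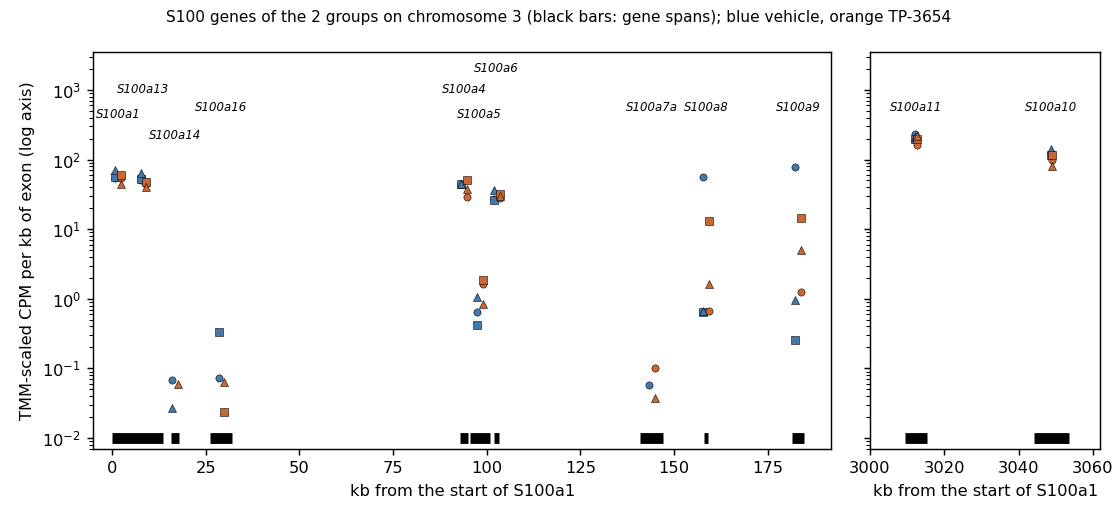
S100 genes along chromosome 3 as distance in kb from the start of S100a1 (black bars, gene spans) with the CPM per kb of exon in each library on a log axis (blue vehicle, orange TP-3654; circle, square and triangle, replicates 1 to 3); values of 0 are not drawn, nor is S100a3. S100a5, S100a14, S100a16 and S100a7a, between well expressed neighbours, lie below 2 CPM per kb, and S100a8 and S100a9 spread the most among the 8 members.

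The annexin-binding pair lay highest. S100a10, the light chain of the annexin A2 complex, stood at 138.6, 141.1 and 172.1 CPM in vehicle and at 119.0, 138.8 and 98.6 CPM in TP-3654 libraries. The groups overlapped by the margin between vehicle replicate 1 and TP-3654 replicate 2. Its log2 fold change was -0.34 (SE 0.15, 95% interval -0.68 to -0.0088, edgeR unadjusted p = 0.0453, adjusted p = 0.281). S100a11, which binds annexin A1, stood at 118, 99.97 and 107 CPM in vehicle and at 82.5, 102 and 112 CPM in TP-3654 libraries, with groups that overlapped and a log2 fold change of -0.14 (SE 0.13, edgeR adjusted p = 0.605), which was -0.02 without TP-3654 replicate 1. Of the 31-base words of its transcripts, 48.9% also occur in other loci, among them S100a11-ps, none of which the count table lists, so its level is uncertain.

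S100a13, the member tied to release of growth factors without a signal peptide, was the only one of the 8 whose groups did not overlap. It stood at 35.9, 38.0 and 45.6 CPM in vehicle and at 31.4, 33.8 and 28.7 CPM in TP-3654 libraries, a mean of 39.8 ± 5.12 against 31.3 ± 2.54 CPM. All 3 TP-3654 values lay below the lowest vehicle value, which was so for 11.6% of tested genes. Its log2 fold change was -0.35 (SE 0.14, 95% interval -0.66 to -0.034, edgeR unadjusted p = 0.0335, adjusted p = 0.259), 1.27-fold, and it did not pass. Its head-to-head neighbour S100a1 stood at 37.6, 38.7 and 48.8 CPM in vehicle and at 37.7, 42.0 and 31.02 CPM in TP-3654 libraries, with groups that overlapped (log2 fold change -0.18, SE 0.16, edgeR adjusted p = 0.569), which was -0.05 without vehicle replicate 3. Both were highest in vehicle replicate 3 and lowest in TP-3654 replicate 3.

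S100a4, which binds the heavy chain of non-muscle myosin and marks motile cells, was almost identical in the vehicle libraries at 25.7, 25.8 and 25.9 CPM and spread to 17.0, 30.1 and 22.3 CPM in TP-3654 libraries. Its highest vehicle value was 1.01-fold its lowest, against a median gene at 1.26-fold, and with TP-3654 it was 1.77-fold, against 1.29-fold. The log2 fold change was -0.16 (SE 0.20, edgeR adjusted p = 0.692), and 0.02 without TP-3654 replicate 1. GENCODE places a longer gene, Gm42674, over S100a4 on the same strand, and 49.2% of its 31-base words are shared with it, so its level is uncertain too. S100a6, or calcyclin, stood at 37.5, 36.3 and 49.1 CPM in vehicle and at 38.0, 43.8 and 40.7 CPM in TP-3654 libraries. Its means were 41.0 ± 7.04 and 40.8 ± 2.87 CPM, and its log2 fold change had a 95% interval of -0.34 to 0.33 (edgeR adjusted p = 0.990).

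As a family, 0 of 8 members passed in edgeR over all genes. DESeq2 also called 0, where it called 4.92% of the genes it tested, but it gave S100a8 no adjusted p. At an unadjusted p under 0.05 there were 2 of 8, S100a10 and S100a13, both with negative values, against 17.1% of all tested genes in either direction and 6.84% with a negative value. Without vehicle replicate 1 there were 3, the added gene being S100a9 with a positive value, and without vehicle replicate 3, TP-3654 replicate 1 or TP-3654 replicate 3 there were 0. All 8 log2 fold changes were negative, with a median of -0.26, against 47.9% negative and a median of 0.01 over all tested genes, but S100a6 was at -0.0048 and its sign changed under 6 of 15 other settings. The sign also changed for S100a9 under 4 of the 15, for S100a8 under 2 and for S100a4 under 1. The authors' deposited table gives no adjusted p for S100a8 and S100a9. Of the other 6 members 0 are under 0.05 there, where 5.31% of all genes are. The smallest deposited adjusted p-values are 0.110 for S100a11 and 0.121 for S100a13.

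**Figure D5:**
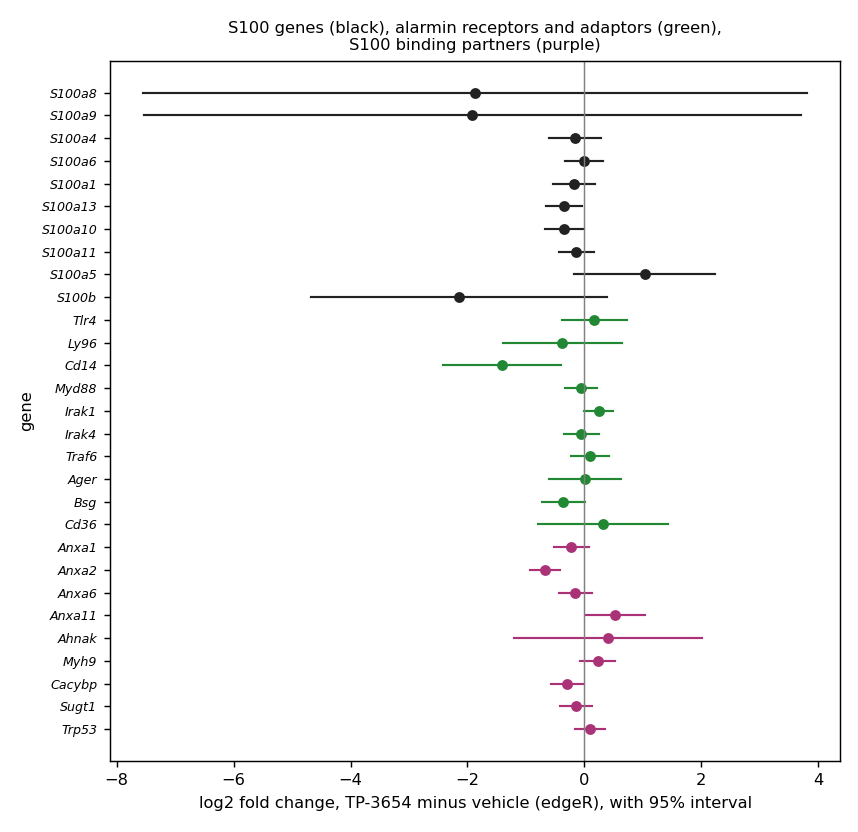
Log2 fold change (TP-3654 minus vehicle, edgeR, all 6 libraries) with its 95% interval for the tested S100 genes (black), alarmin receptors and adaptors (green) and S100 binding partners (purple). The intervals of S100a8 and S100a9 run from about -7.5 to 3.8, and Anxa2 lies at -0.67, apart from 0.

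Of 9 further S100 genes, 5 were in the count table and all were scarce. S100a5 stood at 0.276, 0.180 and 0.458 CPM in vehicle and at 0.694, 0.813 and 0.358 CPM in TP-3654 libraries (log2 fold change 1.03, SE 0.54, edgeR adjusted p = 0.351). S100b, the glial S100 protein on chromosome 10, stood at 1.42, 6.08 and 0.412 CPM in vehicle and at 1.16, 0.271 and 0.358 CPM in TP-3654 libraries (log2 fold change -2.14, SE 1.05, edgeR adjusted p = 0.349). Its highest library was vehicle replicate 2, where S100a9 was lowest. S100a7a, S100a14 and S100a16 had at most 12 counts in a library and did not pass the filter.

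Receptors and adaptors of extracellular S100a8 and S100a9 were tested as 10 genes. edgeR called 0 over all genes and 1 was under an unadjusted p of 0.05, against 17.1% of all tested genes. The median log2 fold change was -0.02. The groups did not overlap at 2 of the 10 that were lower and at 1 that was higher. Over all tested genes these shares were 11.6% and 14.3%. The gene under an unadjusted p of 0.05 was Cd14, the coreceptor that hands ligands to Toll-like receptor 4. It was at 7.13, 3.38 and 3.57 CPM in vehicle and 1.94, 2.48 and 0.869 CPM in TP-3654 libraries (log2 fold change -1.40, SE 0.45, edgeR adjusted p = 0.183). DESeq2 called it lower (adjusted p = 0.0422), and without vehicle replicate 1 its log2 fold change in edgeR was -0.97 (adjusted p = 0.374). Tlr4 itself stood at 10.4, 8.74 and 5.87 CPM in vehicle and at 8.47, 10.7 and 8.94 CPM with TP-3654. Ager, the receptor for advanced glycation end products, stood at 3.53 to 4.68 CPM in vehicle and 3.22 to 4.90 CPM with TP-3654. Bsg, the membrane protein basigin that also binds S100a9, ran from 202 to 316 CPM with TP-3654 and from 327 to 368 CPM in vehicle, with no overlap, and did not pass (log2 fold change -0.36, edgeR adjusted p = 0.300). Without TP-3654 replicate 3 its log2 fold change was -0.20. Irak1 went the other way, higher in all TP-3654 libraries than in any in vehicle (log2 fold change 0.25, SE 0.11, edgeR unadjusted p = 0.0501, adjusted p = 0.293). Without TP-3654 replicate 3 the log2 fold change of Irak1 was 0.17.

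Among intracellular partners, 11 of 12 were in the count table and 9 were tested. Anxa2, the annexin that S100a10 holds in a complex at the membrane, stood at 162, 164 and 181 CPM in vehicle and at 95.5, 110 and 113 CPM in TP-3654 libraries. The groups were far apart for their spread, with a log2 fold change of -0.67 (SE 0.11, edgeR adjusted p = 0.0716), 1.59-fold. DESeq2 called Anxa2 lower (adjusted p = 0.000118). So did limma-voom with sample weights (adjusted p = 0.0398) and edgeR without TP-3654 replicate 3 (adjusted p = 0.0407). No other setting tried did, and over the other fits without 1 library its edgeR adjusted p was 0.0842 to 0.299. The authors' deposited table gives Anxa2 an adjusted p of 0.0141. The value for its partner S100a10 was -0.34, and whether it differs from that of Anxa2 was not tested.

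Of the remaining partners, Anxa11 (log2 fold change 0.53, edgeR unadjusted p = 0.0412) and the S100a6 partner Cacybp (-0.29, edgeR unadjusted p = 0.0484) had groups that did not overlap, and neither passed. Without TP-3654 replicate 3, where Anxa11 was at 139.9 CPM against 75.8 and 84.4 CPM in its group, the log2 fold change of Anxa11 was 0.20. Values were higher without overlap at 14.3% of tested genes and lower at 11.6%. Anxa1, the partner of S100a11, had a log2 fold change of -0.22 (SE 0.14), and Myh9, the myosin heavy chain bound by S100a4, one of 0.23 (SE 0.13) with no overlap of its groups, and 0.13 without TP-3654 replicate 3. Of the 9, edgeR called 0 over all genes, and the median log2 fold change was -0.14. At an unadjusted p under 0.05 in edgeR there were 3 of the 9, against 17.1% of all tested genes in either direction. The S100a13 cargo genes Fgf1 and Il1a were at most 1.08 and 0.463 CPM and did not pass the filter.

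Genes with profiles most like the members other than S100a8 and S100a9 were close to them, at 0.027 to 0.105 log2 units. The median gene lay at 0.248 to 0.319. They were Uqcc3, Cln6 and Nfe2 for S100a1, Csf2rb, Cd300a and Anxa1 for S100a4, and Capg, Phldb3 and Tmem205 for S100a6. For S100a10 they were Rilpl2, Dhodh and Actr5, for S100a11 Anxa6, Tmem150b and Myb, and for S100a13 Psen2, Rplp1 and Rnf113a1. With 6 libraries in 2 groups these distances are a description, with no test.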

How the data were processed

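The authors deposited whole-number read counts per Entrez gene for 6 libraries, with no normalization. A second deposited table compares the groups: per the file headers it holds a signal (the mean normalized count of a gene), log2 fold changes with their errors, the Wald statistic as a score, and raw and adjusted p-values. The submitters' processing notes name HISAT2 2.1.0, SAMtools 1.9.0, DESeq2, mm10 and GRCm38. Which tool counted reads, on which annotation and with what use of strand is not given in the sources used here, so the reads of overlapping genes cannot be told apart.

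Of 15845 Entrez IDs, 12995 took a symbol from the deposited table and 2844 from RefSeq (GRCm38.p6). The counts were fitted with edgeR 4.0.16 in R 4.3.3, using TMM factors, filterByExpr (13149 genes kept), a robust quasi-likelihood fit and Benjamini-Hochberg adjustment over all tested genes, called under 0.05. Standard errors were derived from the fold change and the F statistic. The other settings tried were DESeq2 1.42.0, limma-voom (limma 3.58.1) with and without sample weights, other scalings and filters, a non-robust fit, a replicate block and leaving out each library. The fit was tested on simulated counts. Libraries of a group differed by far more than counting noise.

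The members and gene lists were chosen with earlier results of these data known. The named genes are all 8 members, the other S100 genes in the table, the receptor, partner and C/EBP lists where they pass the filter, set markers of each cell type, and, among tested genes with a mean log2 CPM of at least 1, the 6 most like S100a8 and S100a9 in profile and the 3 most like each other member. The search with no limit on level was added after seeing the data. Padi4, Cxcr2, Cd3e, Fgf1, Il1a, Hba-a1, Fcnb, Ctsg, Flt3, Mecom, Hlf, Meis1, Clec4a2, Tlr13, Lipg and Prtn3 are outside that rule and were picked with their values known. Shared sequence was measured with 31-base words of GENCODE M21 transcripts on both strands.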

Additional observations from a re-analysis of the deposited data

How the results depend on the processing

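No member of the S100 family was called under any of the 15 settings tried, among them DESeq2, limma-voom, a replicate block and the fits without 1 library. S100a8 had no adjusted p under DESeq2 and could not be called there. Over all genes, where edgeR called 0 (2244 at an unadjusted p under 0.05), DESeq2 called 657, limma-voom with sample weights 147, edgeR with no low-count filter 5 and edgeR with a replicate block 3; leaving out 1 library gave 0 to 31. The labels give no pairing of libraries by replicate number. Same-numbered libraries had correlations of deviations of -0.0241, -0.0040 and 0.0308, and differently numbered ones ran from -0.0458 to 0.0495. With so few libraries these values cannot tell whether a batch was shared.

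Of 120 member values under other settings, 107 kept their sign and 13 did not. S100a8 was at 0.29 with the replicate block, S100a9 at 1.10 with the replicate block, 0.59 with limma-voom and 0.83 with limma-voom and sample weights. S100a6 was at 0.011 with limma-voom, 0.054 with sample weights, 0.0082 with upper quartile scaling and 0.0060 with the replicate block. Leaving out 1 library gave -4.08 to 2.98 for S100a8, -3.08 to 3.47 for S100a9, -0.10 to 0.14 for S100a6, -0.39 to 0.024 for S100a4, -0.25 to -0.02 for S100a11 and -0.28 to -0.05 for S100a1. Apart from the leave-one-out fits, the cause of these changes was not tested. At 3 counts the level was 0.116 to 0.153 CPM, which limits S100a9 in vehicle replicate 2.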

Other observations

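Gene means in the authors' deposited table did not follow from the deposited counts by 1 scale factor. Over 12993 shared genes, the deposited mean divided by the mean of normalized counts computed here had a median of 0.879, with 8.51% of genes within 1% of that median and a range from the 5th to the 95th percentile of 0.634 to 1.18. The ratio was 0.850 for S100a8 and 1.31 for S100a9, and it was 0.777 for S100a4 and 0.882 for S100a11. For S100a11 the authors' deposited table gives a log2 fold change of -0.34, where edgeR on the counts gave -0.14.

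Across marker lists, erythroid genes had another order of libraries than S100a8 and S100a9. Of 7 erythroid genes in the table, 5 were highest in TP-3654 replicate 1, where S100a8 was at 0.463 CPM, and 2 in vehicle replicate 1. Hba-a1, an alpha globin gene, stood at 248.5, 94.1 and 108 CPM in vehicle and at 421, 118 and 332 CPM in TP-3654 libraries.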
